A study of Mus musculus with 162 samples.

Results

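The 9 mouse genes for pore-forming subunits of the voltage-gated sodium channel family (Scn1a, Scn2a, Scn3a, Scn4a, Scn7a, Scn8a, Scn9a, Scn10a and Scn11a) were followed through RNA-seq counts of trigeminal ganglia and spinal cord from mice whose skin was treated with MC903 or with its ethanol vehicle. MC903 is a vitamin D analog that, applied daily, produces a dermatitis with itch. The members were found by their symbols among the 46078 Ensembl genes of each library, and all 9 matched. Of the 162 libraries of the series, 56 of ganglion and 27 of cord were used. The 70 skin libraries and 9 ganglion libraries labelled wild-type day 12 were left out of every comparison.

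All animals were adult male C57BL/6 mice given 0.2 mM MC903 in ethanol, or ethanol alone, once per day, to the cheek for the ganglion work and to the shaved rostral back for the cord work. Uninjected wild-type ganglia gave 4 MC903 and 4 ethanol libraries at day 1, 3 and 2 at day 2, 3 and 3 at day 5, and 5 and 5 at day 8. The day 8 ganglion libraries carry titles of 2 styles, treated as cohort A (2 and 2) and cohort B (3 and 3). Wild-type mice injected with PBS gave 4 MC903 and 3 ethanol ganglion libraries at day 8. Mice injected with 250 µg of anti-Gr1 (aGr1), an antibody that depletes neutrophils, gave 4 and 4. TSLPR KO mice, which carry a germline disruption of the gene Crlf2 for the receptor of the cytokine TSLP, gave 2 and 2 ganglion libraries at day 8 and 4 and 4 at day 12. The cord was sampled at day 8 in wild-type mice only, with 4 MC903 and 5 ethanol libraries without injection, 2 and 2 with PBS, and 8 and 6 with aGr1. The study asked what changes in itch-transmitting tissue as the dermatitis develops, comparing MC903 with ethanol within each condition. No label says that libraries of a group are separate animals, so the p-values measure the spread between these libraries.

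Voltage-gated sodium channels open when a neuron is depolarized and carry the inward current of the action potential. Each channel is a single large alpha subunit with its own opening threshold and kinetics, joined by small beta subunits and by cytoplasmic partners that set its density and location. Scn1a, Scn2a, Scn3a and Scn8a encode the channels Nav1.1, Nav1.2, Nav1.3 and Nav1.6 that carry spikes in the brain and spinal cord, the last also at nodes of Ranvier. Scn9a, Scn10a and Scn11a encode Nav1.7, Nav1.8 and Nav1.9, the channels best known from nociceptors, the sensory neurons for pain and itch. Scn4a encodes Nav1.4 of skeletal muscle, and Scn7a encodes the atypical channel Nax, which responds to extracellular sodium. The trigeminal ganglion holds the cell bodies of the sensory neurons that innervate the face, whereas the cord holds central neurons and the incoming axons of sensory neurons whose cell bodies lie outside it.

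Of the 9 genes, 5 lie on chromosome 2 within 1328 kb (GRCm38, GENCODE M21): Scn3a (ENSMUSG00000057182) at chr2:65457118-65567627, Scn2a (ENSMUSG00000075318) at chr2:65620771-65767447, Scn1a (ENSMUSG00000064329) at chr2:66270778-66440840, Scn9a (ENSMUSG00000075316) at chr2:66480080-66634962 and Scn7a (ENSMUSG00000034810) at chr2:66673425-66784914. Scn10a (ENSMUSG00000034533, chr9:119608456-119719322) and Scn11a (ENSMUSG00000034115, chr9:119753759-119825456) are neighbours on chromosome 9, spanning 217 kb together. Scn4a (ENSMUSG00000001027, chr11:106318592-106353288) and Scn8a (ENSMUSG00000023033, chr15:100869858-101045938) stand alone. Annotated genes overlap Scn1a (Gm13630), Scn3a (Gm13595) and Scn9a (Gm13629, Gm13627 and Gm23046). The strand setting of the counting is not given in the sources used here, so how reads in these overlaps were assigned cannot be stated. Reads tallied as ambiguous, and so given to no gene, were 1.98% to 13.2% per ganglion library and 2.19% to 4.75% per cord library.

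Start-site windows from RefSeq (GRCm38.p6, 250 bases before to 50 after the annotated start, written 5′ to 3′ on the gene's strand) were present for 8 of the 9 members, and Scn3a had none. They are printed for the adjacent genes Scn10a and Scn11a, which the tissue comparison below sets apart from the others, and for the upstream window of Scn8a, the member nearest to equal levels in both tissues. Capitals mark each CG dinucleotide.
Scn10a, chr9:119718983-119719282, minus strand: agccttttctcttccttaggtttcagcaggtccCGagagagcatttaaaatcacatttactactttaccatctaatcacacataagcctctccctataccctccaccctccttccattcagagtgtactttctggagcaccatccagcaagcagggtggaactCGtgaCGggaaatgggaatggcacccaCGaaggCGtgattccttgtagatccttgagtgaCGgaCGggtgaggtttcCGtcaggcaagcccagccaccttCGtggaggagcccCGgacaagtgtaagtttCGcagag
Scn11a, chr9:119825407-119825706, minus strand: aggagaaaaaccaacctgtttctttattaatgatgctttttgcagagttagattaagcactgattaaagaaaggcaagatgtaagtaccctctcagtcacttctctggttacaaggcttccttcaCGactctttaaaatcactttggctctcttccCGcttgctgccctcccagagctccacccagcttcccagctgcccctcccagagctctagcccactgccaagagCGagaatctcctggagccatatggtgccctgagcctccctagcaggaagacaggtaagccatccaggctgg
Scn8a, chr15:100870395-100870694, plus strand: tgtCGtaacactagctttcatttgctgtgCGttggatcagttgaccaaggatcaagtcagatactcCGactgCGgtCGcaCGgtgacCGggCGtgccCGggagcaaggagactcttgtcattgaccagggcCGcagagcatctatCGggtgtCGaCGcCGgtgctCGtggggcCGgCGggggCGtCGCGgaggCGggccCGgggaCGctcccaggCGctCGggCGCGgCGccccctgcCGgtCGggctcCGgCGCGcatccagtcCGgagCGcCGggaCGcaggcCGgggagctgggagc
The Scn10a window held 11 CG dinucleotides, the Scn11a window 3 and the Scn8a window 38, against a median of 7 over 32851 windows of 27025 genes. Fewer CG dinucleotides than in these windows were found in 58.6%, 23.3% and 95% of all windows, respectively. The neighbouring nociceptor genes differed in CG content, and no methylation or binding data bear on these windows here.

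Libraries held 15931871 to 62105901 counts on genes in the ganglion and 21595429 to 50591655 in the cord, and replicates differed by more than sampling noise in every pair compared. The tissue labels matched their markers: the sum of 9 sensory neuron markers was 1422 to 3963 cpm (counts scaled so that the genes of each library sum to the same total) in the ganglion and 75.5 to 248 cpm in the cord, whereas 4 markers of spinal inhibitory neurons summed to 704.5 to 825 cpm in the cord and to 1.12 to 130.5 cpm in the ganglion. At day 1, the ganglion libraries of MC903 replicates 1 and 2 stood apart, with pan-neuronal markers at 3272 and 4666 cpm against 5740 to 6477 cpm in the ethanol group and oligodendrocyte markers at 2092 and 2375 cpm against at most 618 cpm. The day 1 ethanol replicate 1 held pituitary hormone genes at 4331 cpm, and ethanol replicates 2 and 3 of day 5 held them at 11432 and 6029 cpm. Crlf2 was at 0 to 7 counts in the 4 ganglion libraries labelled TSLPR KO at day 8 but at 38 to 81 counts (0.91 to 2.06 cpm) in the 8 at day 12. In wild-type ganglion libraries Crlf2 was at 1.15 to 7.58 cpm, except for the library labelled ethanol cohort B replicate 2 of day 8, which had 4 counts (0.12 cpm) and so went against its wild-type label. The day 12 set is therefore called by its label. For the fits that include the other libraries named here, member results are given with and without them and partner results only with them.

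In the ganglion, the sodium channel genes that dominated were those of the nociceptor and of Nax, and in the cord those of central neurons. Between the 5 ganglion and 5 cord libraries of uninjected wild-type mice on ethanol at day 8, 5 of the 9 members were higher in the ganglion at an adjusted p under 0.05, against 20% of all 25788 genes tested, and 3 were lower, against 19.2%. Scn10a and Scn11a were close to absent from the cord, Scn9a, Scn7a and Scn4a were far lower there, and Scn1a, Scn2a and Scn3a were higher there. Scn8a did not pass the test. The treated body site and, by the paper, the volume applied differ with the tissue and cannot be told apart from it. In bulk tissue, fewer cells of a type and less RNA per cell cannot be told apart either.

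Scn10a was at 886, 962, 668, 548 and 630.0 cpm in the 5 ganglion libraries and at 12, 1, 5, 0 and 2 counts in the 5 cord libraries, so the groups were separated without any overlap. Pooled over libraries this is 121625 counts against 20, a ratio of 5865 (95% counting interval, exact, 3797 to 9601), and the fitted log2 fold change was 12.47 ± 0.41 (SE, n = 5 and 5, edgeR quasi-likelihood adjusted p = 2.13e-11). Scn11a was at 488, 489, 342, 307 and 382 cpm in the ganglion and at 23, 1, 4, 1 and 9 counts in the cord, a pooled ratio of 1675 (1220 to 2367) and a log2 fold change of 10.69 ± 0.42 (edgeR adjusted p = 1.11e-10). Such intervals cover counting error only. The same cord library, replicate 1, held the most counts of both genes, and it also had the highest sensory neuron marker sum of the 5, 214 cpm against 143 to 170.5 cpm. It differed from the other cord libraries of its group more than they did from each other. In the 10 fits that left out 1 library, Scn10a ran from 12.17 to 13.40 and Scn11a from 10.40 to 11.66. All members but Scn8a kept their direction and passed in each of these fits. Over all 27 cord libraries, Scn10a never exceeded 12 counts, and in 21 of them it was at or under 3 counts, taken as not detectable.

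Scn9a was also a ganglion gene but remained measurable in the cord, at 409 to 619 cpm against 11.7 to 15.2 cpm, with a log2 fold change of 5.20 ± 0.14 (edgeR adjusted p = 5.08e-12). Scn7a had the highest pooled level of the members in these 5 ganglion libraries, 916 cpm beside 748 cpm for Scn10a. It was at 833 to 1029 cpm against 5.14 to 12.1 cpm in the cord, a log2 fold change of 6.60 ± 0.19 (edgeR adjusted p = 7.93e-12). Scn10a was above Scn7a in every ethanol ganglion library with aGr1 (632 to 829 against 520 to 680 cpm). The same held in those labelled TSLPR KO of day 12 (781 to 867 against 640 to 771 cpm). Neither Scn9a nor Scn7a overlapped between tissues in any library. Scn7a is known from glia as well as neurons, and the Schwann cell marker sum was 2981 to 12868 cpm in these ganglion libraries and 269 to 434 cpm in these cord libraries. The part of those cells in the Scn7a difference was not tested.

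The muscle channel gene Scn4a was low in both tissues yet clearly separated, at 12.3, 12.8, 9.08, 3.31 and 7.73 cpm in the ganglion and at 2, 29, 10, 3 and 18 counts in the cord (log2 fold change 4.55 ± 0.54, edgeR adjusted p = 1.01e-05). The 8 skeletal muscle markers summed to 9.09 to 69.8 cpm in these ganglion libraries and to 31.2 to 129.8 cpm in these cord libraries, and the part of muscle RNA in the Scn4a levels was not tested.

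The genes of central neurons ran the other way. Scn2a was at 42.5, 44.9, 31.8, 43.5 and 46.7 cpm in the ganglion and at 72.6, 109, 101, 125.1 and 120.2 cpm in the cord, a log2 fold change of -1.31 ± 0.13 (edgeR adjusted p = 1.77e-06). Scn1a was at 225 to 347 cpm against 466 to 537 cpm (-0.73 ± 0.11, edgeR adjusted p = 0.000114). For both genes every cord library was above every ganglion library. Scn3a, a channel gene of embryonic neurons, was at 18.2 to 28.8 cpm against 27.3 to 38.2 cpm, which overlap, and differed by -0.41 ± 0.12 (edgeR adjusted p = 0.0181).

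Scn8a had no stable direction between the tissues. It was at 554, 528, 390.3, 309 and 421 cpm in the ganglion and at 309.9, 401, 380.4, 404 and 435 cpm in the cord, overlapping throughout (log2 fold change 0.21 ± 0.14, edgeR adjusted p = 0.257). Without the library labelled ethanol cohort B replicate 2, the Scn8a difference was 0.32 ± 0.11 and passed (adjusted p = 0.0384), whereas among PBS-injected mice it was -0.14 ± 0.05 (0.0253) and among aGr1-injected mice -0.56 ± 0.08 (2.81e-05), both past the threshold in the opposite direction. Cord Scn8a was 508 to 563 cpm in the ethanol groups of injected mice, above the 309.9 to 435 cpm of the uninjected group. Injection and processing group cannot be told apart there. The other 8 members kept their direction and their call without the library that went against its label, for example Scn4a at 4.76 ± 0.45 and Scn10a at 12.56 ± 0.37.

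Per kilobase of exon, a scale on which genes can be ranked, the ganglion order was Scn7a (124.6 ± 11.3 cpm per kb, mean ± SD, n = 5), Scn10a (92.7 ± 22.2), Scn11a (67.7 ± 14.1), Scn9a (39.3 ± 7.13), Scn8a (27.9 ± 6.41), Scn1a (26.6 ± 4.32), Scn2a (3.29 ± 0.46), Scn3a (2.02 ± 0.34) and Scn4a (1.29 ± 0.55). The ranges of neighbours in this order overlapped for Scn7a and Scn10a, Scn10a and Scn11a, Scn9a and Scn8a, Scn8a and Scn1a, and Scn3a and Scn4a. The cord order was Scn1a (44.5 ± 2.68), Scn8a (24.5 ± 2.97), Scn2a (8.30 ± 1.63), Scn3a (2.71 ± 0.32), Scn7a (1.31 ± 0.36) and Scn9a (1.09 ± 0.11), followed by Scn4a, Scn11a and Scn10a, all at or below 0.130 cpm per kb in every library. Here only Scn7a with Scn9a, and the last 3 with each other, overlapped. As a share of the summed cpm of the 9 genes, Scn9a, Scn10a and Scn11a made up 46.7% to 51.5% in the ganglion and 1.26% to 1.42% in the cord. The 4 central genes made up 22.1% to 25.5% and 97.5% to 98.0%.

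**Figure D1:**
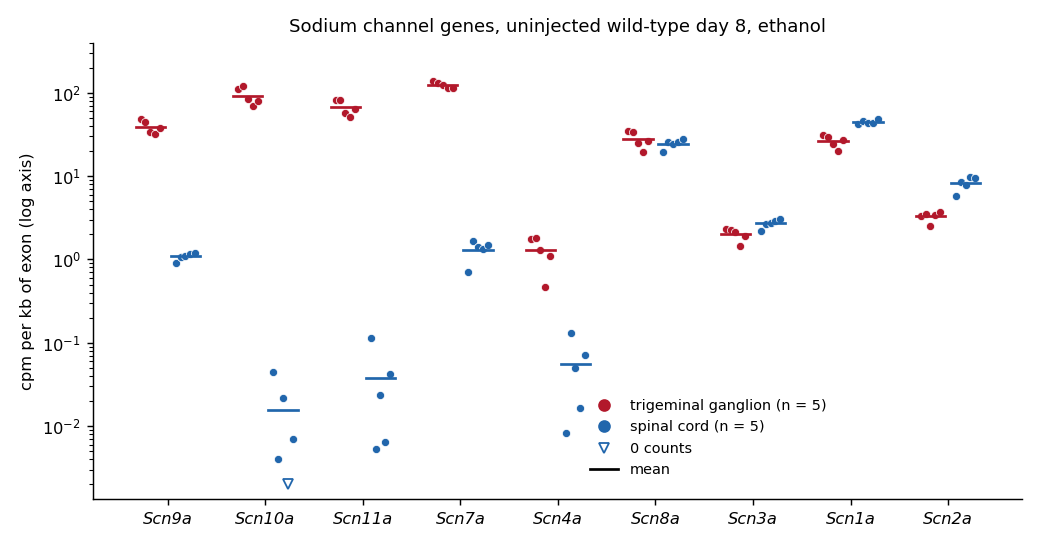
Level of each sodium channel gene in uninjected wild-type mice on ethanol at day 8, in cpm per kilobase of exon on a log axis, with 1 point per library (5 of trigeminal ganglion in red, 5 of spinal cord in blue), a line at the mean and an open triangle for 0 counts. Scn10a and Scn11a lie at 51.8 or more in the ganglion and at 0.114 or less in the cord, Scn8a overlaps, and Scn1a and Scn2a are higher in the cord.

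The channels' auxiliary subunits and partners, a list of 19 genes, were divided in the same comparison: 9 were higher in the ganglion, beside 20% of all genes, 4 were lower, beside 19.2%, and 6 did not pass. Of the beta subunits, which modulate gating and surface expression, Scn3b was higher in the ganglion by 1.84 ± 0.09, Scn4b was higher by 0.59 ± 0.13, and Scn2b was lower by -0.70 ± 0.11. The furthest apart was Tmem233, which encodes a membrane protein that can associate with Nav1.7, at 216 to 248 cpm in the ganglion and 5 to 23 counts in the cord (log2 fold change 9.47 ± 0.26, edgeR adjusted p = 5.08e-12). The fibroblast growth factor homologous factors, cytoplasmic proteins that bind the channel tail and shape inactivation, split: Fgf13 was higher in the ganglion (2.71 ± 0.17) and Fgf14 (-3.25 ± 0.18) and Fgf11 (-2.11 ± 0.13) were lower. S100a10, an adaptor known for carrying Nav1.8 to the membrane, was higher by 2.23 ± 0.10.

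**Figure D2:**
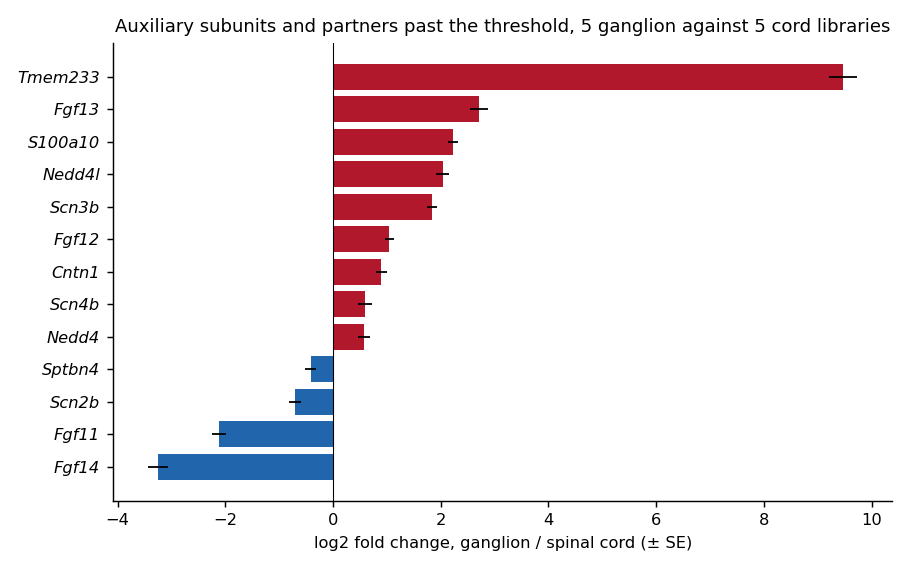
Log2 fold change of the 13 auxiliary subunits and partners that passed an adjusted p of 0.05, ganglion over spinal cord, from the fit on 5 and 5 uninjected ethanol libraries at day 8, with error bars for SE, in red where the gene was higher in the ganglion and in blue where it was higher in the cord. Tmem233 stands furthest to the right at 9.47 and Fgf14 furthest to the left at -3.25.

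MC903 did not move the sodium channel genes of uninjected wild-type ganglia past the threshold for this tissue (adjusted p under 0.1) on any of the days. None of the 9 was called by edgeR at day 1 (background 0% of genes called), day 2 (0%), day 5 (0.00823%) or day 8 (0.16%), and DESeq2 called none either. At an unadjusted p under 0.05 there were 1, 2, 1 and 1 members, respectively. Over all genes tested, these counts were 2034 of 25319, 1527 of 24092, 938 of 24300 and 1787 of 25600. The median log2 fold change of the 9 was -0.60, -0.28, -0.06 and -0.04, beside 0.012, 0.018, 0.0036 and 0.0077 over all genes.

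At day 1 all 9 members had fold changes below 0, from -0.86 ± 0.37 for Scn3a to -0.34 ± 0.34 for Scn1a. Scn10a was at 108, 305, 578 and 720 cpm with MC903 and at 509.5, 706, 695.5 and 747 cpm with ethanol. The low values were those of MC903 replicates 1 and 2, whose pan-neuronal markers were also below the ethanol range, and the part of this was not tested. Scn1a was at 95.2 cpm in MC903 replicate 1 and at 359 cpm in MC903 replicate 2, against 272 to 323 cpm in the ethanol group. Scn1a was among the members higher in the cord, and oligodendrocyte markers were above the ethanol range in both of these MC903 libraries. The part of RNA from central tissue in their Scn1a levels was not tested. Scn3a and Scn2a were raised in ethanol replicate 1, at 72.3 and 182 cpm against 24.3 to 25.3 and 44.3 to 47.8 cpm in its group. Without these 3 libraries, Scn3a differed by -0.09 ± 0.11 and Scn10a by -0.17 ± 0.12. At day 2 Scn9a was at 519.7, 356 and 427 cpm with MC903 and at 700.1 and 539 cpm with ethanol (-0.53 ± 0.19, edgeR adjusted p = 0.725), and the values did not overlap.

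From day 5 on, Scn10a was the member with the largest positive fold change among the nociceptor genes. At day 5 it was at 634, 807 and 1002 cpm with MC903 and at 619, 584 and 613 cpm with ethanol, without overlap (0.46 ± 0.18, edgeR adjusted p = 0.9996), and it was 0.38 ± 0.30 without the pair of ethanol libraries that held pituitary transcripts. At day 8 it was at 1216 and 1073 cpm against 886 and 962 cpm in cohort A, and at 596, 756 and 690.4 cpm against 668, 548 and 630.0 cpm in cohort B. The values separated in cohort A (0.31 ± 0.12) and overlapped in cohort B (0.14 ± 0.10), and the combined value was 0.21 ± 0.08 (edgeR adjusted p = 0.702). Scn11a, its chromosomal neighbour, differed at day 8 by -0.15 ± 0.07, Scn9a by 0.01 ± 0.08 and Scn7a by -0.12 ± 0.09. Without the library labelled ethanol cohort B replicate 2, these were 0.18 ± 0.08 for Scn10a, -0.19 ± 0.07 for Scn11a, -0.02 ± 0.08 for Scn9a and -0.14 ± 0.09 for Scn7a, and no member passed.

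In PBS-injected mice at day 8, 3 of the 9 members were lower with MC903, beside 1.45% of all 23708 genes tested, and none was higher. At an unadjusted p under 0.05 there were 7 members, beside 3399 of these 23708 genes. Scn7a was at 645.5, 624, 654 and 724 cpm with MC903 and at 764, 785.5 and 810.0 cpm with ethanol (-0.25 ± 0.05, edgeR adjusted p = 0.0256). Scn1a was at 205, 207, 218 and 226 cpm with MC903 and at 237, 254 and 250.4 cpm with ethanol (-0.21 ± 0.05, edgeR adjusted p = 0.0504). Scn8a was at 406, 421, 430.5 and 441 cpm with MC903 and at 494, 466 and 469.7 cpm with ethanol (-0.17 ± 0.04, edgeR adjusted p = 0.0684). For all 3 genes every MC903 library was below every ethanol library. These 3 were named because they passed in the same libraries, and the share of all genes separated this way was not counted.

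The calls among PBS-injected mice rested on few libraries. Scn7a passed in 5 of the 7 fits that left out 1 library, Scn1a in 2 and Scn8a in 1. Without ethanol replicate 2 or without ethanol replicate 3 no member passed, and without MC903 replicate 4 there were 6. Scn10a ran opposite to the others, at 949, 829.8, 959.8 and 812 cpm with MC903 and at 798, 758 and 759 cpm with ethanol (0.20 ± 0.06, edgeR adjusted p = 0.141), again without overlap. It passed in 4 of 13 alternative fits, DESeq2 among them (adjusted p = 0.0859). The sensory neuron marker sum was 3014 to 3614 cpm with MC903 and 2724 to 2785 cpm with ethanol here, and the 3 fibroblast markers summed to 500.1 to 612 cpm and 631 to 688 cpm, neither with overlap. The sensory neuron sum lay above that of ethanol without overlap elsewhere too. It was 2911 to 3157 against 2084 to 2603 cpm at day 5 and 3234 to 3741 against 2644 to 2859 cpm at uninjected day 8. With the TSLPR KO label it was 3127 to 3523 against 2739 to 2952 cpm at day 8 and 3490 to 3963 against 2858 to 3109 cpm at day 12. It overlapped at days 1 and 2 and with aGr1. The part of sensory neurons and fibroblasts in the member differences of any condition was not tested.

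**Figure D3:**
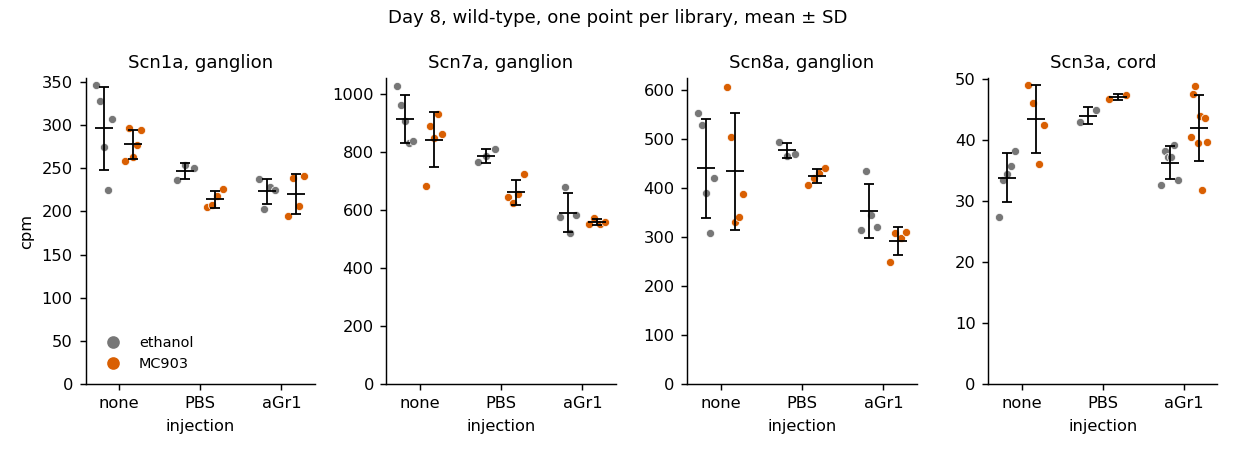
Levels in cpm at day 8 in wild-type mice of the members that passed a threshold, with 1 point per library (ethanol grey, MC903 orange), by injection, with mean ± SD. In PBS-injected mice the MC903 libraries lie below all ethanol libraries for Scn1a (205 to 226 against 237 to 254 cpm), Scn7a and Scn8a in the ganglion, and uninjected MC903 cord libraries reach 36.1 to 48.97 cpm of Scn3a against 27.3 to 38.2 cpm with ethanol.

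With aGr1 and in the libraries labelled TSLPR KO, no sodium channel gene passed in the ganglion. The edgeR counts were 0 of 9 with aGr1 at day 8 (1.88% of all genes called), 0 in TSLPR KO at day 8 (0%) and 0 in the libraries labelled TSLPR KO of day 12 (0.304%), where Crlf2 went against the label. DESeq2 called none. At an unadjusted p under 0.05 there were 1, 0 and 1 members, beside 3095 of 24233, 1886 of 23402 and 1874 of 25969 genes. With aGr1, Scn7a was at 552 to 573 cpm with MC903 and 519.5 to 680.5 cpm with ethanol (-0.06 ± 0.09), and Scn10a at 579 to 836 cpm against 632 to 829 cpm (0.02 ± 0.12). In TSLPR KO mice at day 8, Scn10a was at 659.6 and 718 cpm against 575 and 541 cpm (0.37 ± 0.17, edgeR adjusted p = 0.614). These 2 MC903 libraries differed from each other more than any other replicate pair compared. Their Scn7a was at 517 and 809 cpm against 928 and 896 cpm, and their Scn9a at 277 and 470 cpm against 457 and 421 cpm. With a group so small and uneven, the absence of a call says little, also for the TSLPR KO difference of effects below. In the libraries labelled TSLPR KO of day 12, Scn10a was at 973, 913, 870.2 and 972 cpm with MC903 and at 849.5, 867.5, 836 and 781 cpm with ethanol (0.19 ± 0.08, edgeR adjusted p = 0.679). In both sets labelled TSLPR KO all MC903 libraries were above all ethanol libraries for Scn10a, yet the difference did not pass. How many of all genes separated in these small groups was not counted.

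The difference of the MC903 effect between conditions was tested itself, and no member passed. With PBS-injected in place of uninjected mice as the reference for aGr1, no member passed in ganglion or cord either. Beside 0% of genes called for aGr1 against uninjected ganglia, 0% for TSLPR KO against wild-type ganglia and 0.532% for aGr1 against uninjected cord, the edgeR interaction called 0 of 9 in each, with 0 members at an unadjusted p under 0.05 and none by DESeq2. Of all genes, 1710 of 27015, 2234 of 26576 and 3730 of 28747 were under that unadjusted p. For Scn10a the effect was -0.19 ± 0.15 with aGr1 relative to uninjected mice and 0.16 ± 0.16 in TSLPR KO relative to wild-type mice. The 95% intervals of these log2 differences, -0.48 to 0.11 and -0.16 to 0.47, leave room for a difference of either sign. Without the library labelled ethanol cohort B replicate 2, the values were -0.16 ± 0.16 and 0.20 ± 0.15.

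**Figure D4:**
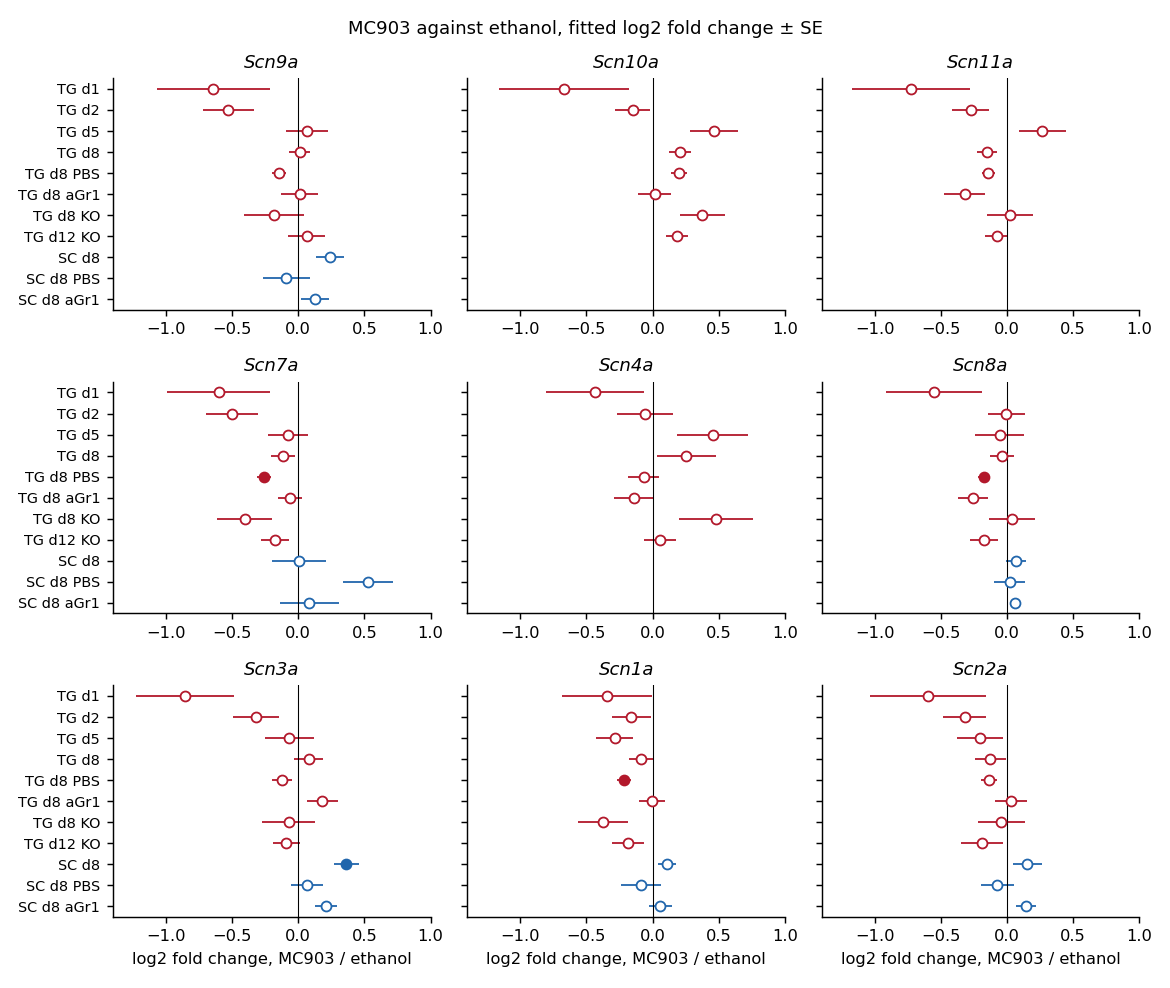
Fitted log2 fold change (MC903 over ethanol) ± SE of each member in every condition, trigeminal ganglion (TG) in red and spinal cord (SC) in blue, by day (d), injection (PBS, aGr1) and TSLPR KO genotype (KO), with filled points where the gene passed the tissue's threshold. Cord values of Scn4a, Scn10a and Scn11a are not drawn because their counts were near 0. The filled points are Scn1a, Scn7a and Scn8a below 0 in PBS-injected ganglia and Scn3a above 0 in uninjected cord.

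A single MC903 term over all 56 ganglion libraries, with a term for each condition and cohort, was added after the separate results were seen. It called 1 member lower, beside 2.42% of genes lower and 3.38% higher. Scn7a was at -0.25 ± 0.07 (edgeR adjusted p = 0.0519), and Scn1a, at -0.18 ± 0.06, did not pass (0.103). Without the day 1 libraries 3 members passed, Scn7a (-0.20 ± 0.05, adjusted p = 0.00896), Scn1a (-0.16 ± 0.04, 0.0198) and, in the other direction, Scn10a (0.18 ± 0.05, 0.019). The same 3 passed without the 3 day 1 libraries that stood apart, with Scn10a at 0.15 ± 0.05 (0.0599), whereas over all 56 libraries Scn10a was at 0.07 ± 0.10. Without the PBS group none passed, and Scn7a had an adjusted p of 0.138. Scn7a was the one member that passed without the day 12 libraries (-0.27 ± 0.09, 0.0981) and without the pair of day 5 ethanol libraries that held pituitary transcripts (-0.25 ± 0.08, 0.0581). Without the library labelled ethanol cohort B replicate 2, Scn1a passed as well (-0.20 ± 0.06, 0.074).

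Scn10a and Scn11a, chromosomal neighbours and both nociceptor genes, had fold changes of opposite sign with MC903 in most conditions from day 8 on. The count ratio of the pair within a library, which needs no scaling between libraries, was chosen after the values were seen and is given as a description without a test. It averaged 1.83 ± 0.13 with ethanol and 2.36 ± 0.31 with MC903 in uninjected wild-type ganglia at day 8 (SD, n = 5 and 5). The 5 ethanol libraries ran from 1.65 to 1.97 and the 5 MC903 libraries from 2.04 to 2.84, without overlap, and leaving out the library labelled ethanol cohort B replicate 2 does not change that. In PBS-injected mice the ratio was 1.81 to 1.84 with ethanol and 2.18 to 2.40 with MC903, and in TSLPR KO mice at day 8 it was 1.62 and 1.71 against 2.13 and 2.11. At day 2 the ranges were 1.47 to 1.57 and 1.61 to 1.69.

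The ratio overlapped between treatments in the other 4 conditions. It was 1.93 to 2.26 with ethanol and 2.25 to 2.83 with MC903 after aGr1, 1.62 to 1.87 and 1.82 to 2.38 in the libraries labelled TSLPR KO of day 12, and 1.65 to 1.74 and 1.52 to 2.37 at day 5. At day 1 it was 1.46 to 1.71 with ethanol and 1.39 to 1.93 with MC903. The MC903 mean was higher in 7 of 8 conditions, from 1.09-fold at day 2 to 1.28-fold at day 8, and was 0.975-fold at day 1. Among all 36 pairs of members, the median number of conditions without overlap was 1 of 8, against 4 for this pair. Those 4 include TSLPR KO day 8, with 2 and 2 libraries, and day 2, with 3 and 2, where ranges separate easily without any effect. The pair was chosen after the values were seen, and pairs of other genes were not counted, so no conclusion is drawn from 4 against 1. The ratio of Scn7a to Scn10a separated in 5 and that of Scn2a to Scn10a in 4, lower with MC903 in each. Ratios of Scn1a, Scn3a and Scn8a to Scn10a separated in 3 each and that of Scn9a to Scn10a in 2, all lower with MC903. That of Scn4a to Scn10a separated in 1, higher with MC903. Separation from Scn10a was thus not particular to Scn11a.

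**Figure D5:**
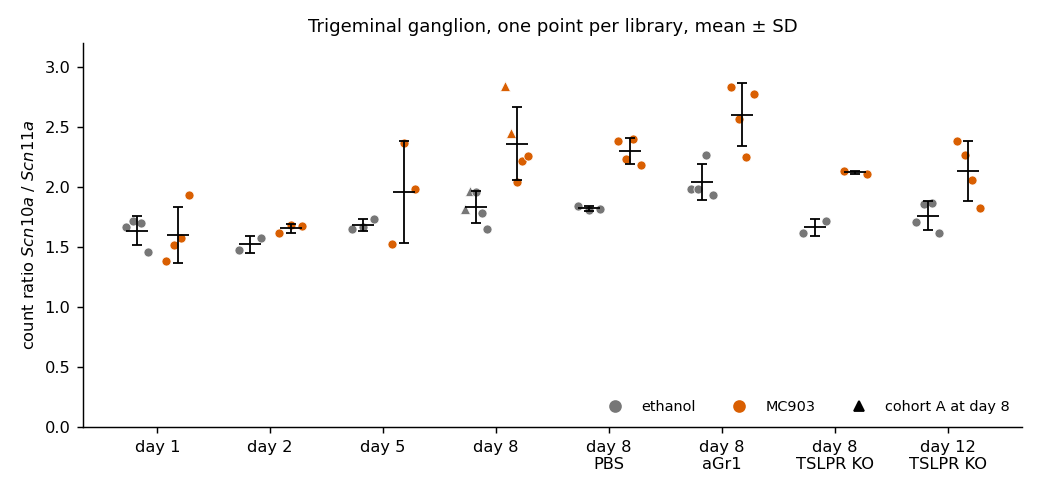
Ratio of Scn10a to Scn11a counts in each ganglion library (ethanol grey, MC903 orange, triangles for cohort A at day 8) by condition, with mean ± SD. The MC903 libraries of day 8 lie at 2.04 to 2.84, above the ethanol libraries at 1.65 to 1.97, and at day 1 the groups overlap.

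In the cord of uninjected mice, 1 member, Scn3a, was higher with MC903 at an adjusted p under 0.05, beside 5.05% of all 25585 genes tested, and none was lower. Scn3a was at 48.97, 46.04, 36.1 and 42.5 cpm with MC903 and at 27.3, 33.3, 34.4, 35.6 and 38.2 cpm with ethanol, so a single MC903 library overlapped the ethanol range (0.36 ± 0.09, edgeR adjusted p = 0.0225). The call was lost without MC903 replicate 1, 2 or 4, with adjusted p from 0.0523 to 0.0878, and held without each of the other 6 libraries. Scaled to the pan-neuronal markers, which summed to 5149 to 5630 cpm with MC903 and 4877 to 5165 cpm with ethanol, Scn3a was at 0.25 ± 0.13 (adjusted p = 0.226). With aGr1 Scn3a was at 31.7 to 48.8 cpm (median 41.99) with MC903 and 32.5 to 39.2 cpm (median 37.2) with ethanol (0.21 ± 0.08, adjusted p = 0.106), and with PBS at 46.6 and 47.4 cpm against 42.96 and 44.9 cpm (0.07 ± 0.12). Over all 27 cord libraries, in a fit added after these results, Scn3a was at 0.24 ± 0.06 and passed (0.00386), the only member to do so beside 9.04% of genes higher and 12.2% lower. Without the uninjected group it was at 0.18 ± 0.07 (0.0897) and no member passed.

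No other cord member passed with MC903. EdgeR called 0 of 9 with aGr1 (6.79% of genes lower) and 0 of the 7 that could be tested with PBS (0%), with 1 member each at an unadjusted p under 0.05 and none by DESeq2. Of all genes, 6811 of 27649 and 1571 of 24573 were under that unadjusted p. Scn1a was at 514, 575, 526 and 527.5 cpm with MC903 against 466 to 537 cpm in uninjected mice (0.11 ± 0.07, edgeR adjusted p = 0.355), and Scn8a at 391 to 430.1 cpm against 309.9 to 435 cpm (0.07 ± 0.07). Scn9a was at 13.9 to 19.9 cpm against 11.7 to 15.2 cpm (0.24 ± 0.11, adjusted p = 0.177). Scn10a held 0, 1, 2 and 1 counts with MC903 and 12, 1, 5, 0 and 2 with ethanol, too few to compare. In the same libraries the 5 immune markers summed to 25.1 to 68.2 cpm with MC903 and 72.2 to 92.1 cpm with ethanol, and the 3 fibroblast markers to 68.2 to 90.4 cpm and 112.4 to 236 cpm, both without overlap. Oligodendrocyte markers overlapped, at 3964 to 4913 and 4474 to 5757 cpm. The part of these cells in the cord results was not tested.

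Among the 19 auxiliary subunits and partners, none passed with MC903 in the uninjected or aGr1 ganglia or in TSLPR KO mice by edgeR, with 0 to 2 of them at an unadjusted p under 0.05 in each of the 7 conditions. Over all genes, those under that unadjusted p ran from 938 of 24300 at day 5 to 3095 of 24233 with aGr1. In PBS-injected ganglia, the adhesion molecule gene Cntn1 was lower (-0.17 ± 0.05, edgeR adjusted p = 0.0943, beside 1.45% of genes), in 7 of 13 alternative fits as well. In uninjected cord 4 were lower, beside 7.14% of all genes. The beta subunit gene Scn2b was at 65.2 to 83.8 cpm with MC903 and 95.7 to 112.3 cpm with ethanol (-0.40 ± 0.09, adjusted p = 0.0106), and Fgf11 at 41.2 to 53.6 against 56.4 to 60.4 cpm (-0.36 ± 0.08, 0.00938). S100a10 was at 27.2 to 31.9 against 32.8 to 40.1 cpm (-0.32 ± 0.09, 0.0282). Tmem233 held 0, 0, 1 and 0 counts with MC903 and 23, 10, 7, 5 and 6 with ethanol (adjusted p = 0.0044).

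In aGr1 cord 4 partners were lower, beside 6.79% of all genes: Fgf11 (-0.23 ± 0.05, edgeR adjusted p = 0.0048) and S100a10 (-0.26 ± 0.06, 0.0102), which were also lower in uninjected cord, Nfasc, a scaffold of the axon initial segment and node (-0.27 ± 0.05, 0.0017), and Dpysl2, a collapsin response mediator that influences channel trafficking (-0.14 ± 0.04, 0.0402). Scn2b did not pass there (-0.07 ± 0.05). In PBS cord none of the 18 tested passed and none was at an unadjusted p under 0.05, beside 1571 of 24573 genes. In the joint cord fit 7 of the 19 were lower, beside 12.2% of genes, namely the 6 just named and Nedd4, and Scn4b was higher (0.16 ± 0.05, 0.0349), beside 9.04%. In the joint ganglion fit S100a10 was higher (0.27 ± 0.08, 0.0515), beside 3.38% of genes, and no other partner passed.

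The genes whose cpm followed each member most closely over the 56 ganglion libraries were sought among 16957 genes, by Pearson's r of log2(cpm + 0.5), each value taken as its deviation from the mean of its own treatment, condition and cohort. These correlations describe libraries that share their depth, dissection and cell makeup. Scn11a had Scn10a as its closest gene (r = 0.94), followed by Plxnc1, Acpp, Grik1 and Coro2a. Scn9a and Scn7a followed each other (0.94), Scn9a behind the actin nucleator gene Fmn1 (0.95). Scn10a followed the adhesion molecule gene L1cam (0.95), Prdm12, a regulator of nociceptor development (0.94), Slc9a9 and Dpysl5, among others. Scn8a followed Syt2, a synaptic vesicle calcium sensor (0.96), Abca3, Dync1h1, Rnf157 and Mast1.

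These lists leaned on the 3 day 1 libraries that stood apart. Without them, Scn8a kept 3 of its 5 genes (Abca3, Dync1h1 and Mast1), Scn11a kept Plxnc1 and Acpp, Scn9a kept Fmn1 and Ralgapa1, and Scn10a kept none, with Bcr first at 0.83. The r of Scn10a with Scn11a then fell to 0.66 and that of Scn10a with Scn7a from 0.81 to 0.15. Scn9a and Scn7a stayed together at 0.82, the highest of the 36 pairs. For Scn1a, Scn2a, Scn3a and Scn4a the closest genes were Trim37 (0.91), Cacna1e (0.82), Gprasp2 (0.89) and Parvb (0.84) over all 56 libraries. Without the 3, those of Scn1a, Scn2a and Scn3a were Myo5a (0.86), Spaca6 (0.83) and Sdcbp (0.78).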

How the data were processed

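Poly(A) RNA was sequenced with single-end reads in 83 libraries of mouse trigeminal ganglion and spinal cord. The deposited files hold whole-number counts of reads per Ensembl gene, which the authors made by aligning reads to mm10 with Bowtie2 and TopHat and counting with HTSeq. These tool names come from the submitters' processing notes and the study's methods. The annotation release and the strand setting of the counting are not given in the sources used here. Of 46078 genes, 935 had no symbol, and the 5 tally lines per file were left out. No column of per-sample values lacked a sample (0 columns). The 9 members and the gene lists were chosen with earlier results of these data known.

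Counts were fitted with edgeR 4.0.16 (TMM scaling, quasi-likelihood F test, R 4.3.3) on genes with at least 10 counts over the libraries fitted, separately for each comparison, with Benjamini-Hochberg adjustment over all genes. Thresholds were an adjusted p of 0.1 in the ganglion and 0.05 in the cord and between tissues. SE was the absolute log2 fold change divided by the square root of F, and 95% intervals of log2 differences were taken from it by the normal distribution. The day 8 fit of uninjected ganglia had a term for cohort. The scripts were tested on simulated data. Alternatives were DESeq2 1.42.0, median-of-ratios size factors, scaling to pan-neuronal markers, other filters, a replicate block and leaving out each library of a group of up to 5, which was not done for the aGr1 cord groups or the joint fits. Levels are cpm, and cpm per kb of GENCODE M21 exons. Ranges with or without overlap are given as a description, and the share of all genes without overlap was not counted. All 9 members were named in full. Partners and marker lists were named as lists, with values for those past the threshold and for beta subunits, and a few items are not reported here. The genes most like a member were the 5 with the highest Pearson's r. Same-numbered libraries deviated together, with every pair above 0.1, in 2 of the 8 sets with 3 or more pairs, day 5 (r from 0.157 to 0.363) and TSLPR KO day 12 (0.234 to 0.628) of the ganglion. With the replicate block there, no member's call changed.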

Additional observations from a re-analysis of the deposited data

Results flagged for a closer look

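In 9 combinations of a member and a group of 4 to 10 libraries, 7.76% of those looked at, 1 library lay far from the others of its group, and chance alone flags about 5% of such combinations. In the ganglion at day 1, ethanol replicate 1 had the highest Scn2a, 182.1 cpm against 47.8 cpm in the next library, and the highest Scn3a, 72.32 cpm against 25.3 cpm. It is the library with pituitary hormone genes at 4331 cpm and spinal inhibitory neuron markers at 120.4 cpm, whose part in these levels was not tested.

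At day 8 in uninjected ganglia, Scn2a was lowest in ethanol cohort B replicate 1, at 31.77 cpm against 42.5 cpm in the next, and Scn3a was highest in MC903 cohort A replicate 2, at 29.68 cpm against 26.3 cpm. Scn4a was highest in PBS MC903 replicate 1, at 10.84 cpm against 9.07 cpm. Scn9a was highest in aGr1 ethanol replicate 2, at 485.4 cpm against 316 cpm, and Scn11a in TSLPR KO day 12 MC903 replicate 4, at 533.2 cpm against 423 cpm. In the cord, Scn4a was highest in aGr1 ethanol replicate 1, at 2.473 cpm (80 counts) against 0.602 cpm, in a library with skeletal muscle markers at 426 cpm. Scn9a was lowest in aGr1 MC903 replicate 6, at 11.85 cpm against 18.03 cpm.

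Libraries outside the comparisons held sodium channel signal that went against their tissue labels. Among 70 skin libraries, Scn10a exceeded 100 cpm in 7, of which 6 were labelled wild-type day 12. The highest of these were 969.3 cpm with MC903 and 1018 cpm with ethanol, and the remaining library, labelled day 2 MC903, had 252.7 cpm of Scn10a. Conversely, 6 of the 9 ganglion libraries labelled wild-type day 12 had under 1 cpm of Scn10a, 5 of them MC903, and the median Scn4a of those 5 was 28.44 cpm.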

How the results depend on the processing

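Of 2076 recomputed member values, 21 no longer passed, 29 newly passed and 15 reversed. The other 2011 stayed on their side of the threshold, and 105 of them changed sign with both values within 1 SE of 0, which was not counted as reversed. Where a value moved, the cause was not tested. Counts of members called were, in PBS-injected ganglia (3), 6 with the replicate block and 0 to 6 leaving out 1 library. In uninjected cord (1) they were 0 scaled to pan-neuronal markers, 0 with the replicate block and 0 to 1 leaving out 1 library. At day 2 (0), leaving out 1 library gave 0 to 5, the 5 without ethanol replicate 2, where the lone ethanol library is assumed to vary like the MC903 group. In PBS cord (0) they were 0 to 1 leaving out 1 library and 1 with a crossed pairing, tried because same-numbered libraries deviated oppositely (r = -0.428). In the joint ganglion fit (1) they were 2 with median-of-ratios size factors, 4 scaled to pan-neuronal markers, 3 with DESeq2, 3 without day 1, 3 without the 3 day 1 libraries, 2 without the library with 4 Crlf2 counts and 0 without the PBS group. In the joint cord fit (1) they were 2 with DESeq2 and 0 without the uninjected group.

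Reversed log2 values at day 1 of the ganglion were 0.18 for Scn2a without ethanol replicate 1 (range leaving out 1 library, -0.78 to 0.18) and 0.024 for Scn4a without the 3 libraries. At day 8 they were -0.059 for Scn4a in cohort A, 0.026 for Scn7a in cohort B and -0.12 for Scn9a scaled to pan-neuronal markers. In the cord they were -2.7e-05 for Scn1a scaled to pan-neuronal markers and 0.85 for Scn11a without ethanol replicate 1 (range -0.46 to 0.85). Between tissues, Scn8a was at -0.091 scaled to pan-neuronal markers, -0.14 in PBS and -0.56 in aGr1 mice, -0.15 over all injection groups and -0.056 in cohort B with the replicate block. That scaling moved the median over all genes by -0.26. The cord difference between aGr1 and PBS was 0.20 for Scn2a, 0.13 for Scn3a and -0.45 for Scn7a.

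The replicate block moved no other count of members by over 1.5 times. Genes called over all alternatives ranged from 0 to 78 at day 1, 0 to 4899 at day 2, 0 to 54 at day 5, 1 to 493 at day 8, 0 to 1063 in TSLPR KO day 8, 161 to 887 with aGr1, 246 to 3602 with PBS and 31 to 356 in TSLPR KO day 12. In the cord they ranged from 1747 to 4960, with aGr1 from 1745 to 3749 and with PBS from 0 to 6075, and between tissues from 6022 to 16922. The differences of effects ranged from 0 to 30 for aGr1 and 0 to 827 for TSLPR KO in the ganglion, and 0 to 461 in the cord. Counts of 3 or fewer were taken as not detectable, which is up to 0.116 cpm in the 5 uninjected ethanol cord libraries, so Scn10a and Scn11a could not be compared within the cord.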
